A study of Mus musculus with 4 samples.

Results

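Acyl-CoA thioesterases are enzymes that split an activated fatty acid, an acyl-CoA, into the free acid and coenzyme A. The members described here are the 9 genes Acot1, Acot2, Acot3, Acot4, Acot7, Acot8, Acot9, Acot12 and Acot13, found by their symbol in the platform annotation of an Affymetrix mouse array. They have 11 probe sets of their own among 22626 that are not Affymetrix controls, and they are 9 of the 12393 genes with at least 1 such probe set. The starved group was 2 livers of wild-type mice that went without food for 24 h, and the control group was 2 livers of wild-type mice. All 4 mice were of the C57/BL6 background and 1 month old, each array held total RNA of 1 liver, and the titles call the arrays of a group biological replicates. The description field of the labels calls both starved mice injected and both control mice not injected, and names no substance. Groups were taken from the titles and treatment field. An effect of any injection cannot be told apart from that of starvation in every difference given here. Values are the authors' log2 RMA signals, and every difference subtracts the mean of the control livers from that of the starved livers on the log2 scale. The thioesterases were chosen with this contrast already known, so their differences are a description and carry no p-value.

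The family keeps the balance between activated and free fatty acids, and its members sit in different parts of the cell. Type I enzymes (Acot1 to Acot6) belong to the alpha/beta-hydrolase fold and lie side by side in the mouse genome, whereas type II enzymes (here Acot7, Acot8, Acot9, Acot12 and Acot13) carry the hotdog fold and are spread over the chromosomes. In liver the oxidation of fatty acids in fasting is governed largely by the nuclear receptor PPAR-alpha, and several type I thioesterases are known from the mouse as genes under its control. Acot1, Acot7 and Acot12 are treated here as cytosolic, Acot2, Acot9 and Acot13 as mitochondrial, and Acot3, Acot4 and Acot8 as peroxisomal.

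In livers of starved mice, 6 of the 9 genes had both arrays above both control arrays, 1 gene had both below, and 2 overlapped. By probe set, 8 of 11 were higher without overlap, against 21.3% of all probe sets, and 1 of 11 was lower without overlap, against 20.6%, so that groups without overlap in either direction made up 41.9% of all probe sets. A log2 difference of at least 1 was found for 5 of the 11 probe sets, against 0.499% of all probe sets, and a difference of -1 or less for 0 of 11, against 0.659%. The median over the 11 probe sets was 0.94 and over all probe sets 0.0028. Since the genes were picked on this contrast, nothing is read from these shares.

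The tissue matched its label. Alb, Ttr, Apoa1, Cps1 and Tat, markers of hepatocytes, read 12.41 to 15.28 in starved livers and 13.04 to 15.30 in control livers. Markers of heart and skeletal muscle, pancreas, kidney, neurons and fat were read from 2 to 4 genes each. Outside the pancreas list, their list means ran from 4.38 to 5.67 over the 4 arrays. The pancreas list stood furthest apart, with a mean of 6.67 and 6.93 on the starved arrays and 7.28 and 7.25 on the control arrays, and its 2 measured genes went opposite ways. Cela1 read 9.12 and 9.46 in starved livers and 10.62 and 10.58 in control livers, and the weakly read Cpb1 had 4.22 and 4.40 in starved livers and 3.94 and 3.92 in control livers. The control 2 array stood apart in acute phase genes, with a list mean of 14.16 against 12.06 and 12.09 on the starved arrays and 12.25 on control 1, and in 2 neutrophil markers, with a mean of 7.80 against 5.85, 6.64 and 5.91. Values without control 2 are therefore given for each thioesterase that differed between the groups. On all arrays Xist read 5.48 to 5.83 and the Y-linked Eif2s3y 9.27 to 9.91, so the groups were not split by sex. Endothelial markers had a median difference of -0.07 and ran from -0.33 to 1.81, highest for Lyve1. Kupffer cell markers had a median of -0.07 and ran from -0.17 to 0.70, highest for Marco. Stellate cell markers ran from -0.45 to 0.31 and cholangiocyte markers from 0.02 to 0.48. In a piece of liver, fewer cells of a type and less RNA per cell cannot be told apart.

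Among the cytosolic enzymes, Acot1 and Acot12 were higher in starved liver and Acot7 was not separated. Acot1, which hydrolyses long-chain acyl-CoAs, read 10.26 and 10.53 in starved livers, against 7.63 and 5.93 in control livers. Both starved arrays lay at least 2.63 log2 units above the higher control array, and the 2 control livers themselves were 1.70 apart. The means were 10.40 ± 0.19 in starved livers and 6.78 ± 1.20 in control livers (SD, n = 2 each), a difference of 3.62 ± 0.86 (SE), or 12.3-fold. Acot1 ranked 3 among the 22626 probe sets by its difference. That difference was 4.47 without control 1 and 2.77 without control 2, so the fold depended on which control liver was used. With groups that do not overlap, leaving out 1 array cannot turn the direction.

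Acot12, an enzyme of liver and kidney that splits acetyl-CoA in the cytosol, was read by 2 probe sets. The brighter one, 1449457_at, gave 11.02 and 11.05 in starved livers, against 10.03 and 9.74 in control livers. The other, 1419395_at, gave 10.005 and 10.026 in starved livers, against 9.234 and 8.909 in control livers. The 2 starved arrays were nearly identical on both probe sets, and the groups were apart by 0.99 and 0.77. The differences were 1.15 ± 0.15 and 0.94 ± 0.16 (SE, n = 2 per group), that is 2.21-fold and 1.92-fold, and without control 2 they were 1.00 and 0.78. Acot7, known chiefly from brain, where it acts on long-chain acyl-CoAs, read 8.13 and 7.99 in starved livers, against 8.28 and 8.09 in control livers. The groups overlapped, and the difference of -0.12 ± 0.12 (SE) was no larger than the spread between mice.

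**Figure D1:**
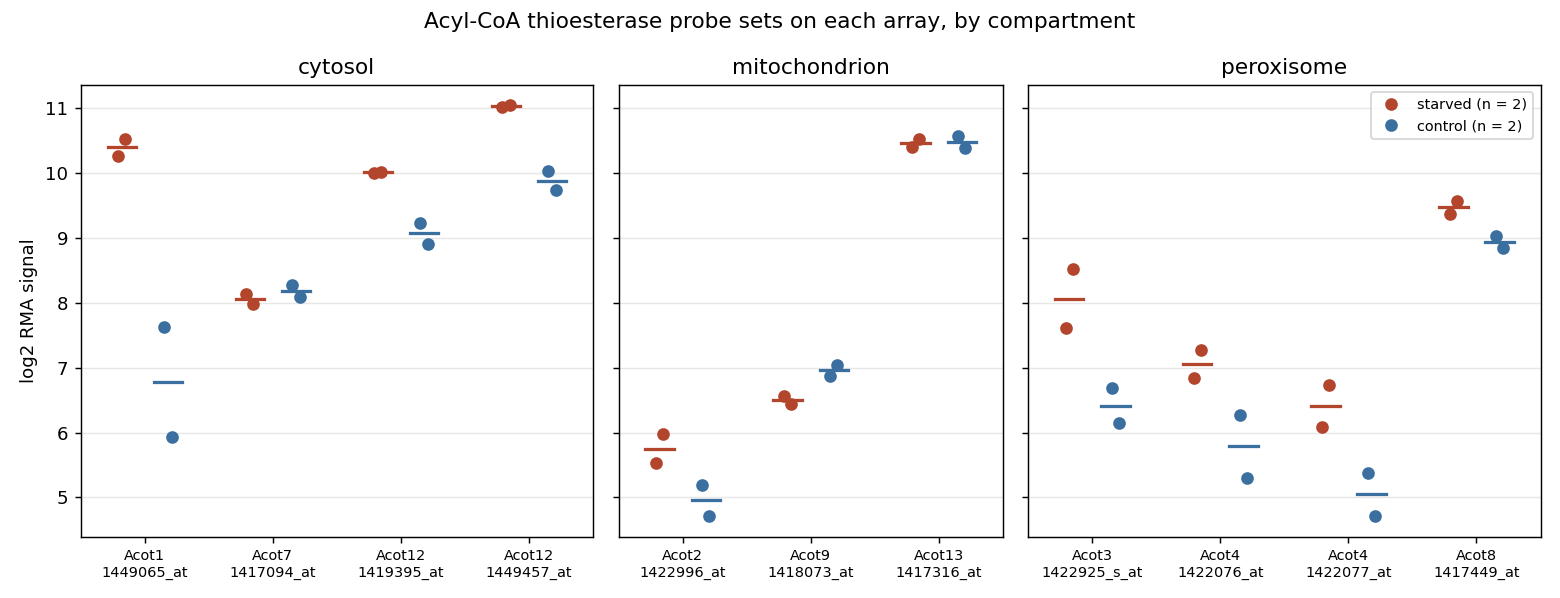
Log2 RMA signal of the 11 thioesterase probe sets on each of the 4 arrays, in panels by compartment, with the 2 starved livers (red) left of the 2 control livers (blue) and a bar at each mean. Acot1 shows the widest separation, with 10.26 and 10.53 in starved livers against 7.63 and 5.93 in control livers, Acot7 and Acot13 overlap, and Acot9 is the 1 gene with both starved arrays below both control arrays.

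The mitochondrial enzymes differed in direction. Acot2, the matrix counterpart of Acot1 with a mitochondrial leader peptide, read 5.53 and 5.98 in starved livers, against 5.20 and 4.71 in control livers. The starved arrays lay above the control arrays by a margin of 0.33, and the difference was 0.80 ± 0.33 (SE), or 1.74-fold. Its signal was weak, below the median of every array and below the lower quartile on 1 array, so the size of this difference is uncertain, and it was 0.56 without control 2. Acot9, a mitochondrial enzyme of broad chain-length range, read 6.56 and 6.44 in starved livers, against 6.87 and 7.05 in control livers. It was the 1 member with both starved arrays below both control arrays, by -0.46 ± 0.11 (SE), and 1.37-fold higher in the control livers. Without control 2 the difference was -0.37. Acot13, also called Them2, a small enzyme associated with mitochondria that prefers long-chain acyl-CoAs, read 10.40 and 10.53 in starved livers, against 10.58 and 10.39 in control livers. Its groups overlapped fully, with a difference of -0.02 ± 0.11 (SE).

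All 3 peroxisomal enzymes, picked on this contrast, were higher in starved liver without overlap on their 4 probe sets, as were 21.3% of all probe sets. Acot3, a long-chain enzyme of the mouse peroxisome, read 7.61 and 8.53 in starved livers, against 6.69 and 6.14 in control livers. The groups were 0.92 apart, and the 2 starved livers differed from each other by 0.92 as well. The difference was 1.65 ± 0.53 (SE), or 3.14-fold, and ran from 1.19 without starved 2 to 2.11 without starved 1, with 1.38 without control 2. Its probe set, 1422925_s_at, is of a type that may hybridise to related transcripts.

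Acot4, which in the mouse peroxisome acts on succinyl-CoA and related dicarboxylic acyl-CoAs, was read by 2 probe sets. On 1422076_at it had 6.84 and 7.27 in starved livers, against 6.28 and 5.30 in control livers, and on 1422077_at it had 6.09 and 6.73 in starved livers, against 5.37 and 4.72 in control livers. The 2 probe sets gave like differences, 1.27 ± 0.54 and 1.36 ± 0.46 (SE), or 2.41-fold and 2.57-fold, with no overlap between groups. The first was 0.78 without control 2 and 1.76 without control 1, so its size rests in part on the control 2 array, and the second was 1.03 and 1.69. Signals were weak: 1422076_at was above the array median on 2 arrays, and 1422077_at on 1. The latter was below the lower quartile on 1 array, so the size of its difference is uncertain. Acot8, a peroxisomal enzyme of wide substrate range, read 9.38 and 9.57 in starved livers, against 9.03 and 8.84 in control livers. The groups were apart by 0.35 and the difference was 0.54 ± 0.13 (SE), or 1.45-fold, and 0.45 without control 2.

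**Figure D2:**
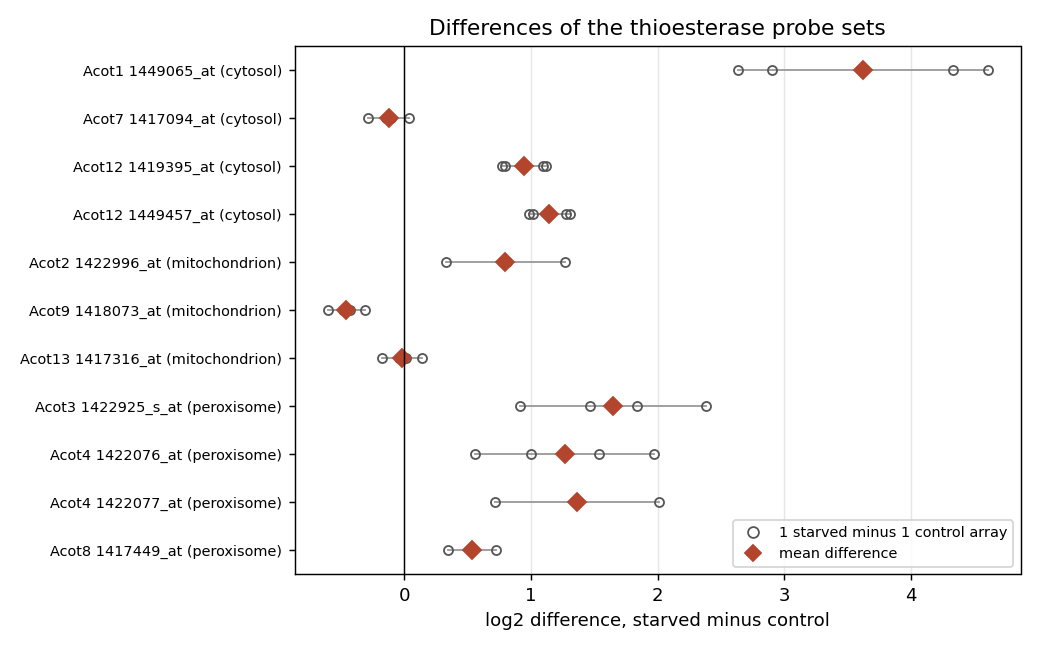
Log2 difference between starved and control liver for each probe set, with the 4 pairings of 1 starved and 1 control array as open circles and the mean difference as a diamond. All 4 pairings lie above 0 for Acot1, Acot12, Acot2, Acot3, Acot4 and Acot8, all 4 lie below 0 for Acot9, and the pairings of Acot7 and Acot13 fall on both sides of 0.

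By structural class, the type I genes Acot1, Acot2, Acot3 and Acot4 had 5 probe sets, all 5 higher without overlap, with a median difference of 1.36. The type II genes had 6 probe sets, of which 3 were higher without overlap, 1 was lower and 2 overlapped, with a median of 0.26. Of all probe sets, 21.3% were higher and 20.6% lower without overlap. The genes were picked on this contrast, so nothing is read from setting the classes side by side. The type I genes stand next to each other on chromosome 12 in the order Acot2, Acot1, Acot4, Acot3, Acot5 and Acot6, as 6 consecutive protein-coding genes of the RefSeq annotation of GRCm38.p6. Acot5 and Acot6, the last neighbours in this row, are not among the members but are measured on the array. Acot5, a peroxisomal relative, read 3.80 and 4.05 in starved livers, against 3.52 and 3.91 in control livers, below the lower quartile of every array. Acot6 read 5.21 and 5.26 in starved livers, against 5.20 and 5.29 in control livers on 1428803_at, and 4.23 and 4.28 against 4.61 and 4.40 on the dimmer 1460388_at. The separation between starved and control livers was thus seen at Acot2, Acot1, Acot4 and Acot3, whereas Acot5 overlapped and Acot6 had overlapping groups on 1 probe set and lower starved arrays on the other. At signals this low an array may not register a difference.

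A further 2 probe sets are annotated to 2 thioesterase genes each and are assigned to neither. The one shared by Acot1 and Acot2 read 9.94 and 10.42 in starved livers, against 7.93 and 7.06 in control livers. Its difference of 2.69 ± 0.50 (SE) lay between the 3.62 of the Acot1 probe set and the 0.80 of the Acot2 probe set. The one shared by Acot9 and Acot10 read 6.30 and 6.47 in starved livers, against 6.62 and 7.05 in control livers, a difference of -0.45 ± 0.23 that lay close to the -0.46 of the Acot9 probe set. Acot1 to Acot4 have similar coding sequences, so signal shared between their transcripts cannot be told apart from these arrays, and the extent was not tested. Acot11, a type II relative with a lipid-binding domain, read 6.19 and 6.36 in starved livers and 6.34 and 6.81 in control livers, with overlap.

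**Figure D3:**
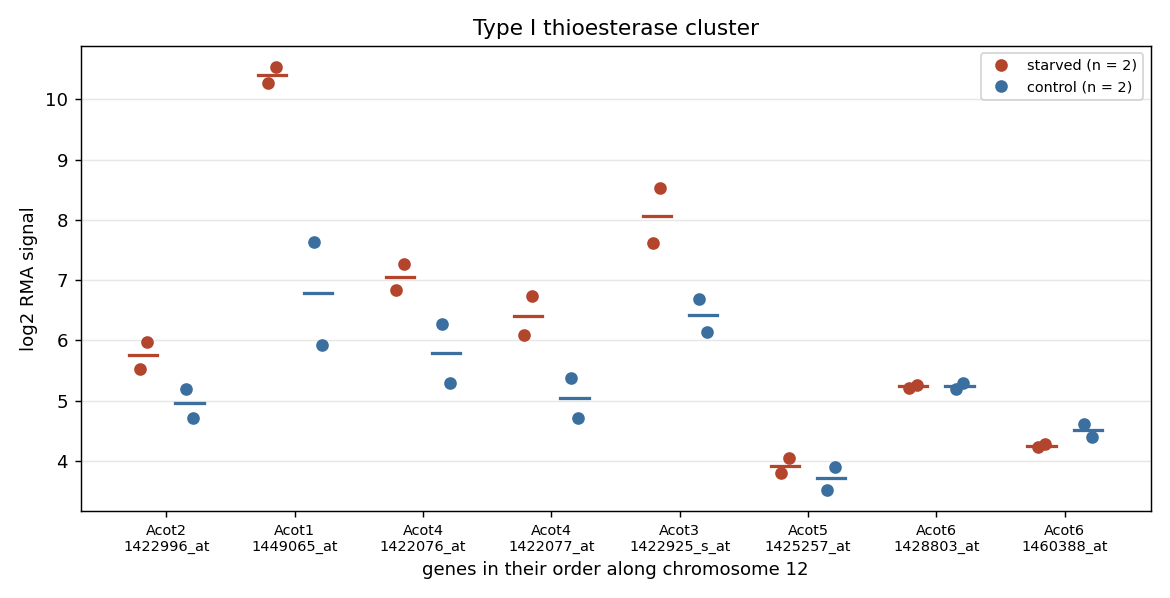
Log2 RMA signal of the probe sets of the 6 type I genes in their order along chromosome 12, starved livers (red) left of control livers (blue), with a bar at each mean of 2 arrays. The first 4 genes are higher in starved liver, by 0.80 for Acot2 up to 3.62 for Acot1, and neither Acot5 nor Acot6, both weakly read, has its starved arrays above its control arrays.

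The promoters of the thioesterases were searched for the direct repeat bound by PPAR-alpha with its partner RXR, DR1, spelled as 2 copies of AGGTCA with 1 base between them, on both strands of windows from 250 bases before to 50 after each transcript start. RefSeq promoters of GRCm38.p6 were found for 8 of the 9 members. The exact repeat was in 0.0481% of the 27025 genes with a promoter and in 0 of these 8, and the looser form with AGGNCA in both copies was in 0.451% of genes and again in 0 of 8. The stretch with the fewest mismatches to the 12 fixed bases was then taken for each window, a measure added after the sequences were seen. Acot12 came within 1 mismatch, as do 0.644% of all genes, at -110 to -98 on the opposite strand, where it reads AGGTgAGAGGTCA with the mismatched base in lower case. Acot4 came within 2 mismatches, as do 4.4% of all genes, at -13 to -1 on the opposite strand, where it reads cGGcCAAAGGTCA. The closest stretch had 3 mismatches in Acot2, Acot3 and in the neighbour Acot5, and 27.3% of all genes have 3 or fewer. It had 4 in Acot1, Acot7 and Acot9, where 81.9% of all genes have 4 or fewer. In Acot8 it had 5, and 99.9% of all genes have 5 or fewer. The single half-site AGGTCA was in the windows of Acot3, Acot4 and Acot12 and of the neighbour Acot5, and is in 18.1% of all genes. It lay within the closest stretch in Acot4 and Acot12, and outside it in Acot3. In Acot5 it lay at -224 to -219, within the closest stretch, and at -1 to 5. A CCAAT box, present in 41.1% of all genes, was in the windows of Acot1, Acot2, Acot3, Acot4, Acot8 and Acot9, and of Acot5.

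The 4 windows printed here have the closest DR1 stretch in capitals as it stands on the gene's own strand. They are the 2 members nearest to the repeat, the member with the largest difference and the weakly read neighbour Acot5, whose groups overlapped. They lie at chr13:91741271-91741570 (Acot12), chr12:84038129-84038428 (Acot4), chr12:84009252-84009551 (Acot1) and chr12:84069074-84069373 (Acot5) of GRCm38.p6, all on the plus strand, and are written 5′ to 3′.
Acot12: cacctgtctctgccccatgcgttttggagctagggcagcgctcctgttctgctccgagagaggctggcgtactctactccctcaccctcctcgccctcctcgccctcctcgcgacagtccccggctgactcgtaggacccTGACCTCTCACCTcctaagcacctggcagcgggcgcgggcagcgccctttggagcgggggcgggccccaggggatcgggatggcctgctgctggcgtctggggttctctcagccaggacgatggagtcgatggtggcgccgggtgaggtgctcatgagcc
Acot4: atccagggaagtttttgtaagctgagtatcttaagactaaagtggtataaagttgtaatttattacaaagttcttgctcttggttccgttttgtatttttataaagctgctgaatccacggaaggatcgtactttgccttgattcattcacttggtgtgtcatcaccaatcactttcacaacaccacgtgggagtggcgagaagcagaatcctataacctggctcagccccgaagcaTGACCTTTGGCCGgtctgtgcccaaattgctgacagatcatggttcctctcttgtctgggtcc
Acot1: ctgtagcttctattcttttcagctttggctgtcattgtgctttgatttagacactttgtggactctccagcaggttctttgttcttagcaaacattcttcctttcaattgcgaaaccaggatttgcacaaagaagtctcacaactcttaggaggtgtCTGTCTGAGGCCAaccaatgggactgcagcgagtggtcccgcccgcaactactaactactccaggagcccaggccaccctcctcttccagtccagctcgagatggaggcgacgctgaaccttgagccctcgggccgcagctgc
Acot5: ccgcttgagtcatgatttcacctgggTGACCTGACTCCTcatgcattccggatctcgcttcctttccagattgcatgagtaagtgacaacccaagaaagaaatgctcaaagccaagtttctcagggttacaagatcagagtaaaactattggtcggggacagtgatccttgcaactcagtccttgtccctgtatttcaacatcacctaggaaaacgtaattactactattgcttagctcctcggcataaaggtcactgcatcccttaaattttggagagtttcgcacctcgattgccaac
Acot1 held no stretch closer than 4 mismatches in this window, and Acot12 and Acot4 held the closest ones of the members. Whether closeness to the repeat goes with the size of a difference was not tested. A match of letters is not a bound site, and the window leaves out distal elements.

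The livers of each group were not alike in these genes. Control 1 lay above control 2 on 10 of the 11 probe sets, Acot9 being the exception, and the same order was found on 54.8% of all probe sets. The gap between the control livers was 1.70 for Acot1, 0.98 and 0.65 for the 2 Acot4 probe sets, 0.55 for Acot3 and 0.49 for Acot2, against a median size of 0.15 over all probe sets. For Acot1 that gap was larger than on 99.8% of all probe sets. Among type II members the same gap was -0.18 for Acot9 and 0.18 to 0.32 for the others, the widest on the dimmer Acot12 probe set. Starved 2 lay above starved 1 on 9 of 11, against 49.8% of all probe sets, with the widest gap of 0.92 for Acot3. The starved arrays were 0.02 and 0.03 apart on the 2 Acot12 probe sets. Cyp4a14, the microsomal fatty acid hydroxylase with the largest positive difference among the 12393 genes, had the same order of control livers, with 13.97 and 14.01 in starved livers, against 7.57 and 5.69 in control livers. The part of the acute phase state of control 2 in these gaps was not tested.

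For the 4 genes whose groups were apart by a log2 difference of at least 1, the genes of most like profile were taken as those with the smallest distance over the 4 arrays, each profile centred on its mean. These are descriptions of 4 arrays. Acot1 was nearest to Cyp4a31, a fatty acid omega-hydroxylase, at a distance of 1.06, followed by Retsat, the retinol saturase, Vnn1, a pantetheinase, Ehhadh, which carries out 2 steps of beta-oxidation in peroxisomes, and Rdh16, a retinol dehydrogenase, at 1.41 to 1.93. Their control livers were 0.03 to 1.13 apart, less than the 1.70 of Acot1. Acot3 was nearest to Rab30, a small GTPase, at 0.16, which read 8.17 and 9.13 in starved livers, against 7.07 and 6.64 in control livers. Next came G0s2, an inhibitor of the lipase Pnpla2, the kinase gene Pim1, the fellow peroxisomal Acot4 and Aldh3a2, a fatty aldehyde dehydrogenase.

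Acot4 was nearest to Cd36, a fatty acid uptake protein, at 0.18, and to Fabp2, a fatty acid binding protein, at 0.24. Cd36 read 8.77 and 9.05 in starved livers, against 8.24 and 7.32 in control livers. Aldh3a2, the nuclear receptor Nr1i3 and the monocarboxylate carrier Slc16a7 followed at 0.32 to 0.40. Acot12 was nearest to Snhg5, a non-coding host of small nucleolar RNAs, at 0.12, followed by Vwa8, Chrna2, a subunit of nicotinic receptors, Hsd17b10, a mitochondrial dehydrogenase, and Slc25a20, the carnitine-acylcarnitine carrier. Slc25a20 read 12.55 and 12.57 in starved livers, against 11.81 and 11.43 in control livers, the same tight starved pair as Acot12.

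**Figure D4:**
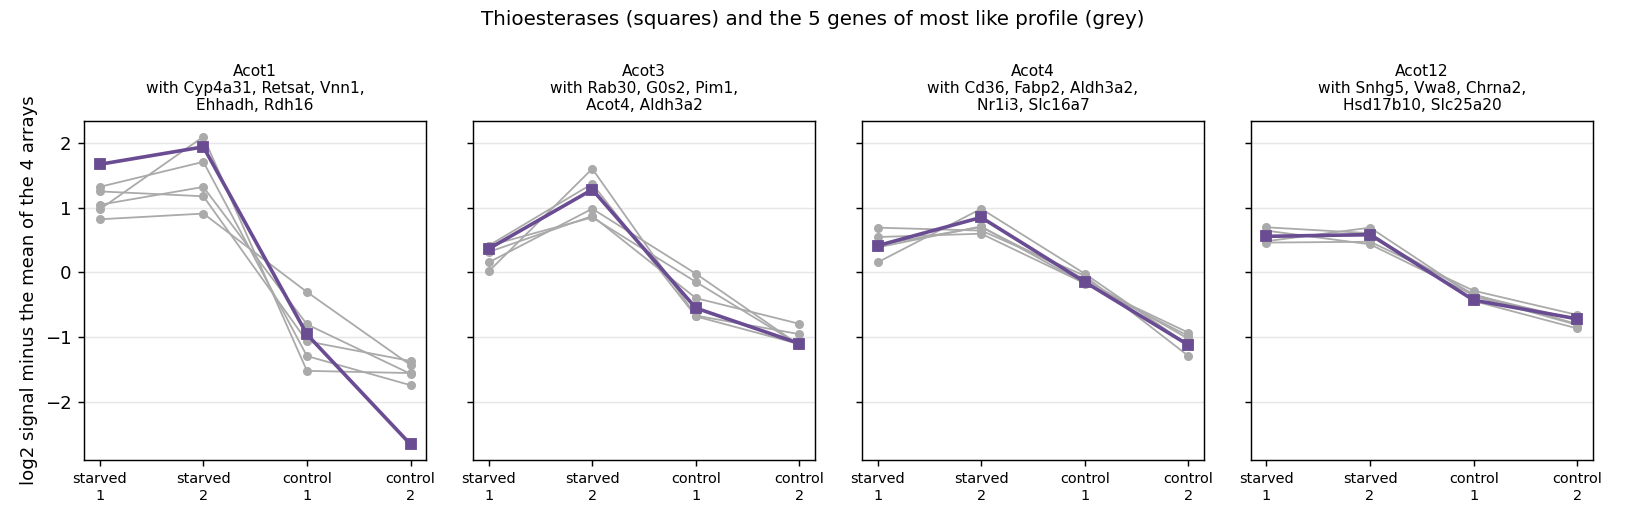
Log2 signal minus the mean of the 4 arrays, for Acot1, Acot3, Acot4 and Acot12 (purple squares) and the 5 genes of most like profile for each (grey circles), on the 2 starved and then the 2 control arrays. Acot1 lies further below its mean on control 2 than its 5 nearest genes, Acot3 and its neighbours peak on starved 2, and Acot12 is level over the 2 starved arrays.

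Genes that make, use or bind the substrates of the thioesterases were tested over all 12393 genes with limma, where 8 genes (0.0646%) had a Benjamini-Hochberg adjusted p below 0.05, 4 higher and 4 lower (0.0323% each way). Of 16 measured genes of peroxisomal acyl-CoA use, 1 rose, Ehhadh, which read 13.50 and 13.42 in starved livers, against 11.18 and 10.87 in control livers (log2 difference 2.44 ± 0.14 SE, limma adjusted p = 0.0385). At an unadjusted limma p below 0.05, 8 were higher and 1 lower, where 1397 of all 12393 genes passed in either direction. The list's median was 0.39, against 0.0031 for all genes. Crat, the carnitine acetyltransferase, had 1.41 ± 0.15 (limma adjusted p = 0.0679) and Acaa1a, a peroxisomal thiolase, 0.74 ± 0.14 (limma adjusted p = 0.157). The 1 lower gene, named after its values were seen, was Nudt7, a peroxisomal hydrolase of coenzyme A and its esters, with -1.42 ± 0.35 (limma adjusted p = 0.248). Of 17 genes of mitochondrial acyl-CoA use, 0 passed limma's adjusted test and 13 were higher at an unadjusted p below 0.05, with a median of 0.64. Cpt1a, the entry step of mitochondrial oxidation, had 0.87 ± 0.13 (limma adjusted p = 0.101).

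Omega-oxidation had 2 of 7 genes that rose, Cyp4a14 by 7.36 ± 0.57 and Cyp4a31 by 3.04 ± 0.21, and none that fell, with a median of 0.55. Cyp4f14, another member of that list, had -1.48 ± 0.17 (limma adjusted p = 0.0686). Of 9 genes of coenzyme A supply and turnover 1 rose, the pantetheinase gene Vnn3, by 1.53 ± 0.12, and the median was 0.13. Of 12 genes of cytosolic acyl-CoA binding and fatty acid synthesis 2 fell, Acly, which makes cytosolic acetyl-CoA, by 1.55 ± 0.13 and the elongase Elovl6 by 1.47 ± 0.11, with a median of -0.30. Each of these 5 genes had a limma adjusted p = 0.0385. Cyp4a31 was read near the lower end of the signal range in control livers, at 4.23 and 3.78, so its fold is uncertain. All 6 calls in these lists were lost after a further quantile normalization (limma adjusted p = 0.059 for each) and with the replicate number as a block (limma adjusted p = 0.1 for each). None of the 6 passed without starved 1 (limma adjusted p = 0.125 to 0.177) or without starved 2 (0.0698 to 0.118), all 6 passed without control 1, and Ehhadh, Cyp4a14 and Cyp4a31 passed without control 2. Cyp4a14 also lost its call with the trend and robust settings of eBayes (limma adjusted p = 0.0864).

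Acyl-CoA synthetases run the opposite reaction and make acyl-CoA. Of 12 measured acyl-CoA synthetase genes 0 passed limma's adjusted test, 3 were higher and 2 lower at an unadjusted p below 0.05, and the median was -0.04. Acss2, which activates acetate, had -1.03 ± 0.15 (limma adjusted p = 0.105). Among 11 other thioesterases and close homologues 0 passed the adjusted test, 1 was higher and 1 lower at an unadjusted p below 0.05, and differences ran from -0.49 for Ppt1, the lysosomal palmitoyl-protein thioesterase, to 0.44 for Hibch, the hydroxyisobutyryl-CoA hydrolase. The 9 thioesterases, with 1 probe set a gene, ran from -0.46 to 3.62, with a median of 0.80. They were chosen with this contrast known, so nothing is read from setting them beside these lists. Of 11 nuclear receptors and cofactors 0 passed limma's adjusted test and 1 was higher at an unadjusted p below 0.05. That unadjusted threshold was passed by 1397 of all 12393 genes in either direction. Ppargc1a, a coactivator of oxidative genes, had 1.01 ± 0.40 (limma adjusted p = 0.438).

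**Figure D5:**
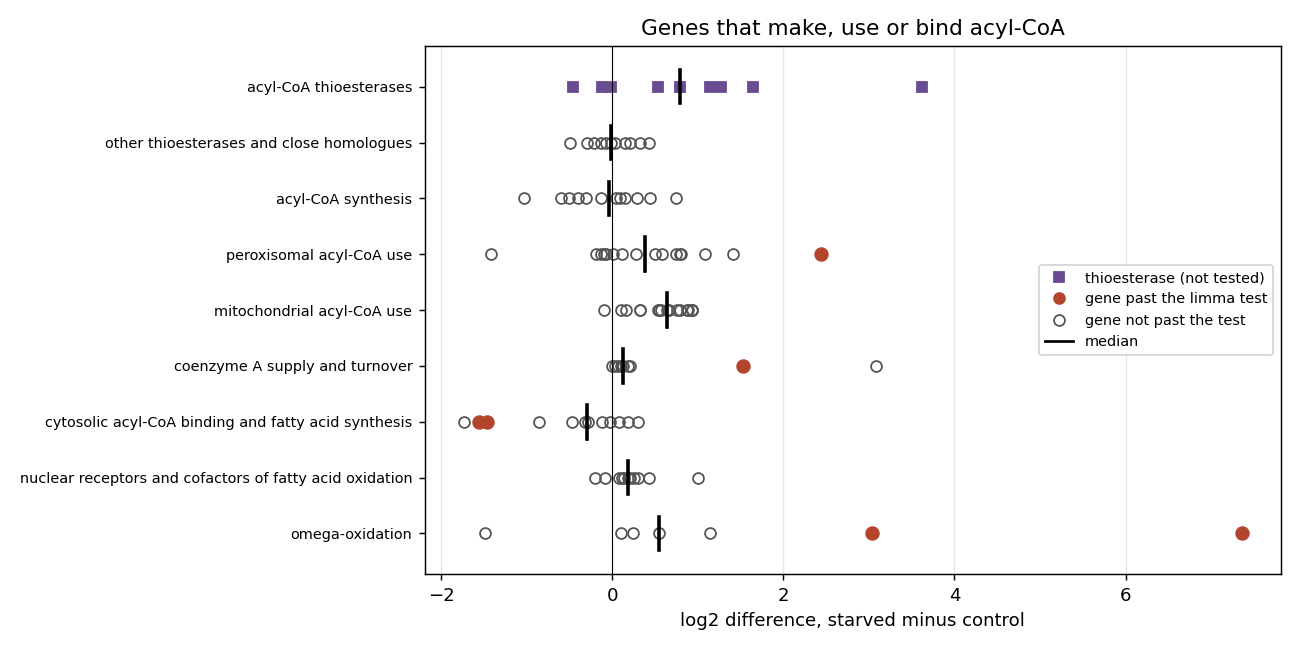
Log2 difference between starved and control liver for the 9 thioesterases (squares, 1 probe set a gene, not tested) and for the measured genes of 8 lists (circles, filled where past the limma test), with a bar at each median. The thioesterases run from -0.46 to 3.62, and 6 list genes are past the test, 4 higher and 2 lower.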

How the data were processed

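Total RNA of 4 mouse livers was measured on Affymetrix arrays, 2 starved and 2 control. The log2 values deposited by the authors are RMA signals, and the submitters' processing notes name affy and RMA without versions or settings. RMA forces the arrays to 1 distribution and would hide a change shared by all transcripts. Array medians were 6.71 to 6.74. Detection calls were not used here, and precision is limited by having 4 arrays.

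Symbols came from the platform annotation and were brought up to date with a RefSeq table of GRCm38.p6 by Entrez identifier, which matched 20351 of the 20380 probe sets with 1 symbol. Another 691 had several symbols and 1555 none, and 64 control probe sets were left out. Members were described per probe set, with SD, and SE from the 4 arrays. Genes that are no members were tested with lmFit and eBayes (limma 3.58.1, R 4.3.3, two-sided, no covariate) on the probe set of highest mean, with Benjamini-Hochberg adjustment over 12393 genes. An exact permutation of 2 against 2 arrays cannot go below a p of 0.333. The fit was also run on simulated data with independent normal noise. Such noise holds no state shared by many genes of 1 array, unlike the acute phase genes of control 2. That run therefore says nothing on how the calls hold in these livers.

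The members, lists and tests were chosen with earlier results of these data known. Named were all members, per list the genes past the test and up to 2 more of smallest p, and the 5 genes of most like profile. Alternatives were other scalings, filters, units, eBayes settings, a replicate block and each array left out. Arrays of equal replicate number showed no shared shift: starved 1 minus 2 and control 1 minus 2 correlated at 0.0171 across genes. This single correlation cannot settle whether arrays were handled in pairs. Sequences are RefSeq promoters, and no protein sequence was used here.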

Additional observations from a re-analysis of the deposited data

How the results depend on the processing

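The size of the thioesterase differences depended on the array left out. Acot1 ran from 2.77 without control 2 to 4.47 without control 1, and Acot4 on its brighter probe set from 0.78 to 1.76. A total of 83 values were recomputed, covering a common median, a further quantile normalization, each array left out, the mean of all probe sets of a gene and leaving out probe sets ending in _x_at or _s_at. The sign was the same in 80 and turned in 3, all of Acot13, whose groups overlapped (0.01 after a further quantile normalization, 0.05 without starved 1 and 0.08 without control 1). Where groups do not overlap, leaving out 1 array cannot turn the sign. Leaving out probe sets ending in _x_at or _s_at left each remaining value as it was. The mean of all probe sets did the same for genes with 1 probe set. Such values could not turn either, so the count of 80 overstates how far the signs were put to a test. The count of 8 member probe sets with starved above control was 8 to 9 with 1 array left out, and the count of 5 with a difference of at least 1 was 4 to 7. Over all probe sets, 262 had a difference of at least 1 in size, and 260 to 422 with 1 array left out, the highest without control 1. Groups did not overlap on 9470 probe sets, and on 15370 to 16662 with 1 array left out, where a lone array must overlap less often.

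The 8 genes past the limma test became 0 after a further quantile normalization, 0 with the replicate number as a block, 13 with all probe sets as the unit, 27 with trend and robust settings, 58 at an adjusted p of 0.1, and 2 to 59 with 1 array left out, the lowest without starved 1, the highest without control 1, with 14 without control 2 (limma, smallest adjusted p = 0.059 and 0.1 for the first 2, where 1413 and 1364 genes had an unadjusted p below 0.05). The acyl-CoA lists held 6 genes past the test, and 0 after quantile normalization, 0 with the replicate block and 1 to 7 with 1 array left out. The 1 gene without either starved array was none of those 6. The cause was not tested. With 1 array left out, the spread of the lone array is taken from the other group. Weak signals limit Acot2, Acot4, Acot5 and Acot6.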
